A study of Mus musculus with 11 samples.

Results

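Hearts of mice that carry a single copy of the Williams–Beuren syndrome (WBS) critical region were examined for 9 of the genes that lie in it, Clip2, Rfc2, Eif4h, Limk1, Abhd11, Bud23, Dnajc30, Tbl2 and Bcl7b. They are the rows of the gene table whose Ensembl identifier, without its version, belongs to those symbols in GENCODE mouse release 21. The table holds 22608 genes, 25 of them from Gtf2i to Fkbp6 on chromosome 5 (GRCm38, 134237834 to 135350044), and 14 of the 25 passed the filter on low counts that left 11319 genes to test. All 9 genes were among the 14, and their positions are given below on chromosome 5 of GRCm38. The other 5 were Gtf2i, Gtf2ird1, Eln, Mlxipl and Baz1b.

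RNA was sequenced from the hearts (ventricle in the labels) of 11 male mice on a C57BL/6J background, aged between 8 and 16 weeks: 2 WT and 3 CD mice given vehicle (WT VEH, CD VEH) and 3 WT and 3 CD mice given JZL184 (WT JZL184, CD JZL184). CD (complete deletion) mice lack the whole interval on one chromosome, and their WT littermates have both copies. JZL184, given at 8 mg/kg for 10 days, blocks monoacylglycerol lipase, which breaks down the endocannabinoid 2-AG. The treatment label of the controls reads untreated, whereas their titles and the study's methods give vehicle (VEH). Mice are named here by the letter in the header of the table, so that WT VEH is mice C and D, WT JZL184 mice A, B and D, and each CD group mice A, C and E. Bulk tissue was measured, so fewer cells of a type and less RNA per cell cannot be told apart.

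A deletion of one copy lowers the template for transcription by the same share in every cell, and a gene with no compensation is found at about 50% of its WT level. Genes whose protein is needed in full amount are then called haploinsufficient, and elastin (Eln) is the known example for the arteries in WBS. The 9 genes have varied functions. Eif4h encodes a cofactor of the eIF4A RNA helicase in translation initiation, and Bud23 a methyltransferase of 18S ribosomal RNA. Clip2 encodes a linker protein that binds microtubules, and Limk1 a kinase that inactivates the actin-severing protein cofilin. Dnajc30 and Abhd11 encode mitochondrial proteins that associate with ATP synthase and with the oxoglutarate dehydrogenase complex, respectively. Tbl2 encodes an endoplasmic reticulum protein that binds the stress kinase PERK, Rfc2 a subunit of the clamp loader of DNA replication, and Bcl7b a subunit of the BAF chromatin remodelling complex.

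The sequences that precede the transcription start are shown for 4 of the genes, because the response to JZL184 differed between genotypes in Clip2, Tbl2 and Bcl7b (values given further on), while Eif4h had the highest expression and no such difference was detected. They come from RefSeq windows of 250 bases upstream of a start (GRCm38.p6), which matched 7 of the 9 genes, and the windows were shortened to end before the outermost annotated start. Capitals mark matches, on either strand, to the GC box GGGCGG, the E-box CACGTG and the cAMP-response element half-site TGACG.
Clip2, chr5:134552435-134552684, minus strand: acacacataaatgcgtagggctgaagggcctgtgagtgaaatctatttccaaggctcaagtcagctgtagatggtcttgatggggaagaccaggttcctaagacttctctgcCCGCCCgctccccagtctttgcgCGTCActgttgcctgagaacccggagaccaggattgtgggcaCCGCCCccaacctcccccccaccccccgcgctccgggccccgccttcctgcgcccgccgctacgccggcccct
Eif4h, chr5:134639491-134639659, minus strand: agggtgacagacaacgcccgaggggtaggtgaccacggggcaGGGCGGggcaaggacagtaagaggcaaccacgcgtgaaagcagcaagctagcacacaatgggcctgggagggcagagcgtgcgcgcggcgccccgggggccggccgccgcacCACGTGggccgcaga
Tbl2, chr5:135149436-135149656, plus strand: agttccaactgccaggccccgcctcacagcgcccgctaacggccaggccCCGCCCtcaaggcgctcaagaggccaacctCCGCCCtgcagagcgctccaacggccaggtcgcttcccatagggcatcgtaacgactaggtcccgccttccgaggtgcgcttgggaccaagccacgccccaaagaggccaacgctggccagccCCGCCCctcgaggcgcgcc
Bcl7b, chr5:135168122-135168282, plus strand: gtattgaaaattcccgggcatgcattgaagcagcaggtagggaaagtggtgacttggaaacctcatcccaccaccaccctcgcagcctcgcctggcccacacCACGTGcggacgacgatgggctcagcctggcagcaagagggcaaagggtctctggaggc
No motif was found in all 4 of the stretches shown. The E-box was found in Eif4h and Bcl7b, and in 6.02% of all 32841 windows of 250 bases. The half-site TGACG was found in Clip2 and in a window of Abhd11, and in 17.8% of all windows. GC boxes were found in windows of 6 of the 7 genes (Clip2, Eif4h, Limk1, Abhd11, Tbl2 and Bcl7b, the match of Bcl7b lying in the stretch that is not shown). Counted by window, this was 6 of the 10 windows of these genes, beside 32.7% of all windows. The CCAAT box (CCAAT) was found in windows of Limk1, Abhd11 and Bud23 (33.9% of all windows), where it overlaps a GC box in Limk1. The NRF1 motif was found in the part of the Bcl7b window that is not shown (3.74%), and the ETS motif CCGGAAGT in none of these genes (2.88%). A match describes the letters and is not evidence of binding.

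Each of the 9 genes was downregulated in CD mice, whether or not they received JZL184. In CD VEH against WT VEH, 9 of 9 were lower with an adjusted p-value under 0.05 in edgeR's quasi-likelihood test, as were 15.4% of all tested genes. In CD JZL184 against WT JZL184 it was again 9 of 9, with 20.1% of all tested genes. With both treatments averaged it was 9 of 9 and 0.671%. Every CD mouse had a lower level than every WT mouse for 9 of 9 genes, and for 0.592% of all tested genes. Summed over the 9 genes, expression was 209 and 217 CPM (read counts relative to the library size, which was scaled by the TMM factors of edgeR) in WT VEH, 208 to 223 in WT JZL184, 111 to 114 in CD VEH and 111 to 116 in CD JZL184. The genes therefore also check the genotype labels of all 11 mice.

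**Figure D1:**
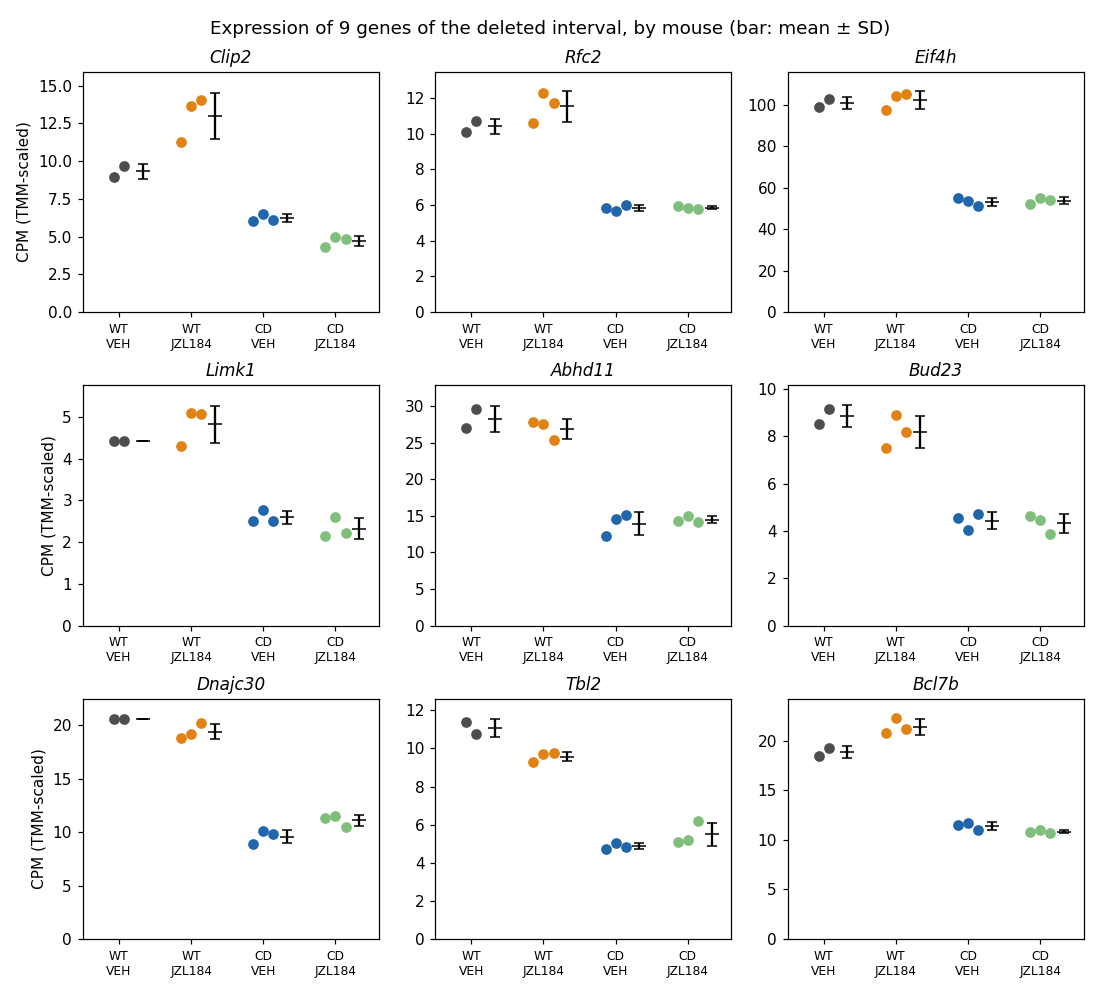
Expression of each gene in TMM-scaled CPM (vertical axes, linear, from 0) in the 4 groups. Points are mice and bars are the group mean ± SD (n = 2 in WT VEH and 3 in the other groups), and in each panel all 6 CD mice lie below all 5 WT mice.

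Per length of transcript, Eif4h was the most highly expressed of the 9 genes, with 57.2 ± 1.92 CPM per kb in WT mice (SD, n = 5, both treatments) and 30.1 ± 0.878 in CD mice (n = 6). Abhd11 followed with 23.8 ± 1.31 CPM per kb in WT mice, Bcl7b with 19.6 ± 1.45 and Dnajc30 with 12.0 ± 0.502. Bud23, at 11.3 ± 0.874 CPM per kb, was not separated from Dnajc30 beyond the spread between mice (their ranges overlapped, with upper ends of 12.3 and 12.4). Rfc2 (7.51 ± 0.594), Tbl2 (4.70 ± 0.404), Clip2 (3.33 ± 0.663) and Limk1 (1.85 ± 0.153) were lower. These levels use the mean length of a gene's annotated transcripts. With the combined length of all exons, Eif4h (18.3 CPM per kb in WT mice) and Abhd11 (12.7) stayed the highest and Limk1 the lowest. Dnajc30 (12.0, range 11.3 to 12.4) then came before Bcl7b, overlapped Abhd11 (11.7 to 13.6) and lay apart from Bud23 (2.50, range 2.21 to 2.71). Clip2 came before Rfc2 and Tbl2, but its range (1.73 to 2.71) overlapped that of Rfc2 (1.60 to 1.94). Counts per gene lay between 184, for Limk1, and 9155, for Eif4h.

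Eif4h (ENSMUSG00000040731.13, 134619721 to 134639490, minus strand), the cofactor of eIF4A, was the closest to a constant ratio. It had 99 and 103 CPM in WT VEH, 97.4, 104 and 105 in WT JZL184, 55.0, 53.6 and 51.2 in CD VEH, and 52.1, 55.0 and 54.3 in CD JZL184. The log2 fold-change (log2FC) was -0.92 without the drug (SE 0.06, edgeR adjusted p = 9.0e-06) and -0.93 with it (SE 0.06, edgeR adjusted p = 5.1e-06). Against the WT mean of the same treatment, the 6 CD mice had between 50.8% and 54.5%.

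Bud23 (ENSMUSG00000005378.17, 135052957 to 135064959, minus strand), the ribosomal RNA methyltransferase, had 8.54 and 9.18 CPM in WT VEH and 7.50, 8.89 and 8.18 in WT JZL184, against 4.54, 4.03 and 4.71 in CD VEH and 4.63, 4.47 and 3.85 in CD JZL184. The CD mice ranged from 45.5% to 56.5% of WT, on both sides of 50%. The log2FCs were -1.0 (SE 0.11, edgeR adjusted p = 7.3e-04) and -0.92 (SE 0.10, edgeR adjusted p = 2.3e-04). Bud23 shares 758 bases with Dnajc30 on the opposite strand. Whether the quantification used strand is not given in the sources used here, so the division of reads between this pair is uncertain.

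Dnajc30 (ENSMUSG00000061118.8, 135064202 to 135065862, plus strand), the mitochondrial protein that associates with ATP synthase, had 20.6 CPM in both WT VEH mice and 18.8, 19.2 and 20.2 in WT JZL184. CD VEH mice had 8.88, 10.1 and 9.78 CPM, and CD JZL184 mice, all higher than these, had 11.3, 11.5 and 10.5. The CD level was 46.6% ± 3.06 (SD, n = 3) of WT with vehicle and 57.3% ± 2.77 (n = 3) with JZL184. The log2FC was -1.10 (SE 0.07, edgeR adjusted p = 9.0e-06) without and -0.80 (SE 0.06, edgeR adjusted p = 4.8e-05) with the drug.

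Abhd11 (ENSMUSG00000040532.14, 135009152 to 135012175, plus strand), the mitochondrial hydrolase, had overlapping levels in both CD groups. Its CPM was 27.0 and 29.6 in WT VEH, 27.9, 27.5 and 25.4 in WT JZL184, 12.2, 14.6 and 15.1 in CD VEH and 14.3, 15.0 and 14.1 in CD JZL184. CD VEH mouse A was the lowest, and the treated CD mice overlapped the others of that group. The log2FC was -1.02 with vehicle (SE 0.09, edgeR adjusted p = 1.1e-04) and -0.89 with JZL184 (SE 0.08, edgeR adjusted p = 9.9e-05). Abhd11 overlaps the antisense gene Abhd11os and another model on the opposite strand, which are not used here.

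Clip2 (ENSMUSG00000063146.11, 134489383 to 134552434, minus strand), the microtubule linker, departed the most from a constant ratio. It had 8.96 and 9.67 CPM in WT VEH and rose to 11.3, 13.7 and 14.1 in WT JZL184. CD VEH mice had 6.02, 6.52 and 6.10 CPM, and CD JZL184 mice were lower still, with 4.33, 4.97 and 4.85. The CD level was thus 66.7% ± 2.89 (SD, n = 3) of WT with vehicle but 36.3% ± 2.61 (n = 3) with JZL184, the highest and the lowest mean among the 9 genes. The log2FC was -0.58 (SE 0.10, edgeR adjusted p = 0.00400) in the first comparison and -1.46 (SE 0.09, edgeR adjusted p = 9.8e-06) in the second. Clip2 shares 1465 bases with the model 2700029L08Rik on the same strand and 378 with Gm42884 on the opposite strand. Neither model has counts here, so the division of reads with them could not be examined.

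Limk1 (ENSMUSG00000029674.13, 134656039 to 134688598, minus strand), the cofilin kinase and the least expressed of the genes, had 4.42 and 4.43 CPM in WT VEH, 4.30, 5.10 and 5.07 in WT JZL184, 2.51, 2.77 and 2.49 in CD VEH and 2.15, 2.61 and 2.21 in CD JZL184. Both CD groups lay apart from both WT groups, and the drug groups overlapped within each genotype. The log2FC was -0.77 (SE 0.12, edgeR adjusted p = 0.00306) with vehicle and -1.05 (SE 0.11, edgeR adjusted p = 2.1e-04) with JZL184, or 58.5% ± 3.43 and 48.2% ± 5.22 of WT (SD, n = 3 CD mice each). Limk1 overlaps the model Gm10369 on the opposite strand by 3656 bases, and that model has no counts here.

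Tbl2 (ENSMUSG00000005374.13, 135149657 to 135165760, plus strand), the PERK-binding protein of the endoplasmic reticulum, had 11.4 and 10.8 CPM in WT VEH and 9.29, 9.70 and 9.74 in WT JZL184. The CD VEH mice had 4.75, 5.06 and 4.83 CPM and the CD JZL184 mice 5.10, 5.21 and 6.18, with mouse E above the rest. The level moved from 44.0% ± 1.44 of WT with vehicle to 57.4% ± 6.19 with JZL184 (SD, n = 3 CD mice each). The log2FCs were -1.18 (SE 0.09, edgeR adjusted p = 3.4e-05) and -0.80 (SE 0.08, edgeR adjusted p = 1.9e-04).

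Rfc2 (ENSMUSG00000023104.9, 134581366 to 134601805, plus strand), the clamp loader subunit, had 10.1 and 10.7 CPM in WT VEH, 10.6, 12.3 and 11.7 in WT JZL184, 5.83, 5.67 and 5.99 in CD VEH and 5.92, 5.86 and 5.77 in CD JZL184. The 6 CD mice were nearly alike, and WT JZL184 mice B and D were higher than the other WT mice. The CD level was 56.0% ± 1.53 of WT with vehicle and 50.8% ± 0.678 with the drug (SD, n = 3 CD mice each). The log2FCs were -0.84 (SE 0.08, edgeR adjusted p = 2.1e-04) and -0.98 (SE 0.07, edgeR adjusted p = 2.3e-05). Rfc2 overlaps Lat2 on the opposite strand by 1784 bases, and Lat2 had at most 112 counts in a mouse.

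Bcl7b (ENSMUSG00000029681.12, 135168283 to 135181855, plus strand), the BAF subunit, had 18.5 and 19.3 CPM in WT VEH and 20.7, 22.3 and 21.1 in WT JZL184. Its CPM was 11.5, 11.7 and 11 in CD VEH and 10.8, 11 and 10.7 in CD JZL184. Every CD mouse was above 50% of WT, with 60.5% ± 2.01 in CD VEH and 50.6% ± 0.639 in CD JZL184 (SD, n = 3 each). The log2FC was -0.73 (SE 0.06, edgeR adjusted p = 8.5e-05) without and -0.98 (SE 0.06, edgeR adjusted p = 3.8e-06) with the drug.

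How far each gene lay from 50% of WT was then read from the genotype effect averaged over both treatments. The averaged level was 49.2% of WT for Clip2 (95% interval 44.3 to 54.7), 50.2% for Tbl2 (45.8 to 55.1), 51.4% for Bud23 (46.0 to 57.4), 51.5% for Abhd11 (47.0 to 56.4) and 51.6% for Dnajc30 (48.0 to 55.5). It was 52.7% for Eif4h (49.5 to 56.1), 53.2% for Limk1 (46.9 to 60.2), 53.3% for Rfc2 (49.2 to 57.7) and 55.3% for Bcl7b (52.0 to 58.9). The point estimate was above 50% for 8 of the 9 genes, and only the interval of Bcl7b left 50% out. The intervals were taken per gene without adjustment, and 99.5% of all tested genes had an interval that left out 50%. In a direct test of each gene against 50%, Bcl7b had an unadjusted edgeR p-value of 0.00417 and the other 8 genes 0.0926 to 0.914. Within a single treatment, the interval of the log2FC left out -1.0, which stands for 50%, for Clip2 (-0.81 to -0.36) and Bcl7b (-0.86 to -0.59) with vehicle, and for Clip2 (-1.67 to -1.25), Dnajc30 (-0.95 to -0.66) and Tbl2 (-0.98 to -0.62) with JZL184. The genes of a mouse share the same library and scaling, so their deviations from 50% are not independent.

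**Figure D2:**
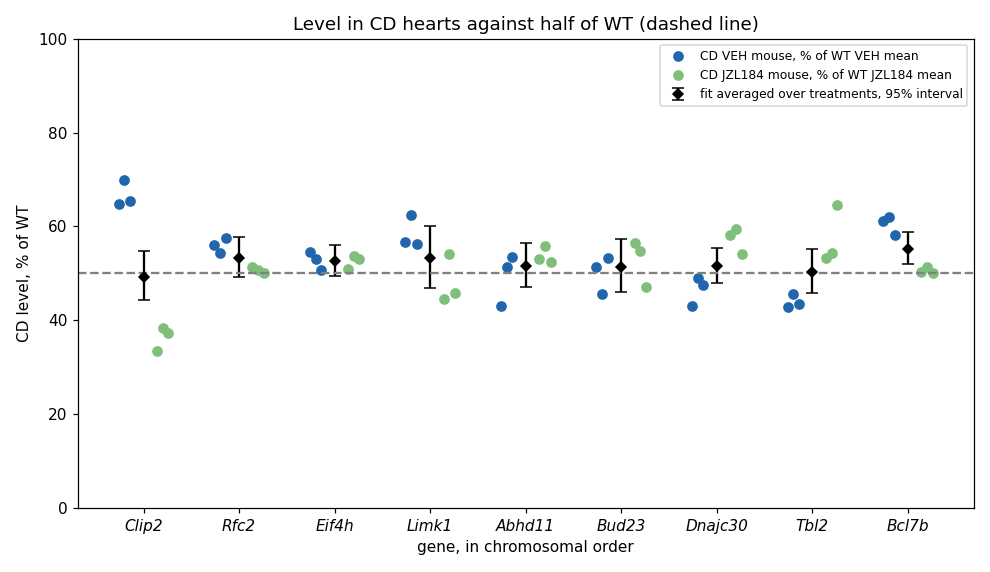
Level in CD hearts as a percentage of WT (vertical axis, linear) for the 9 genes in chromosomal order. Blue and green points are single CD VEH and CD JZL184 mice against the WT mean of the same treatment, black diamonds are the averaged genotype effect with its 95% interval, and the dashed line is 50%. Clip2 has its vehicle mice at 64.7% to 70.0% and its JZL184 mice at 33.4% to 38.3%, on either side of an average near 50%.

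The averages of 49.2% for Clip2, 50.2% for Tbl2, 51.5% for Abhd11, 51.6% for Dnajc30 and 53.2% for Limk1 came from treatments whose mean levels lay on opposite sides of 50%. Over the 9 genes and 6 CD mice, the 54 single values ran from 33.4% to 70.0% of WT with a median of 53.1%, and 40 were above 50%. The averaged log2FCs ran from -1.02 to -0.85 with a median of -0.95, and the median over all tested genes was -0.00. For the other 5 tested genes of the interval the median was -0.99 and the range -1.12 to -0.66, where Gtf2ird1 was the least reduced.

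The effect of JZL184 was then compared within each genotype. In CD mice, Clip2 was downregulated (log2FC -0.40, SE 0.10, edgeR adjusted p = 0.0101) and Dnajc30 was upregulated (log2FC 0.21, SE 0.07, edgeR adjusted p = 0.0281) by CD JZL184 against CD VEH, with 3 of 3 treated mice beyond 3 of 3 vehicle mice for both genes. These were 2 of 9 genes, beside 33.8% of all tested genes that changed in either direction. In WT mice, Clip2 (log2FC 0.48, SE 0.10, edgeR adjusted p = 0.00808) and Bcl7b (log2FC 0.18, SE 0.06, edgeR adjusted p = 0.0448) were upregulated, again with no overlap between the 3 treated and the 2 vehicle mice, and again 2 of 9 genes against 29.4% of all tested genes. Bcl7b passed narrowly and did not pass when any one mouse other than WT JZL184 mouse A was left out. It did not pass either with an offset for gene length (0.07, edgeR adjusted p = 0.347), or, at an edgeR adjusted p of 0.0505 to 0.121, with no filter, with at least 10 counts in every mouse, with only the groups compared or without mitochondrial genes. The increase of Dnajc30 in CD mice did not pass without CD JZL184 mouse A or C or CD VEH mouse A or E (edgeR adjusted p up to 0.112). Without WT VEH mouse C, Clip2 in WT mice did not pass either (log2FC 0.42, edgeR adjusted p = 0.0818).

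The remaining genes did not pass. In CD mice, the log2FC of Tbl2 was 0.17 (95% interval -0.01 to 0.35, edgeR adjusted p = 0.128) and that of Limk1 was -0.15 (-0.40 to 0.09, edgeR adjusted p = 0.305). In WT mice, Tbl2 had -0.21 (-0.41 to -0.02, edgeR adjusted p = 0.0931) and Rfc2 0.15 (-0.02 to 0.32, edgeR adjusted p = 0.173). Eif4h had an interval of -0.10 to 0.14 in CD and -0.11 to 0.15 in WT mice, so that a change by more than these bounds was not seen in either genotype. For Bud23 the intervals reached from -0.26 to 0.18 in CD and from -0.35 to 0.12 in WT mice.

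**Figure D3:**
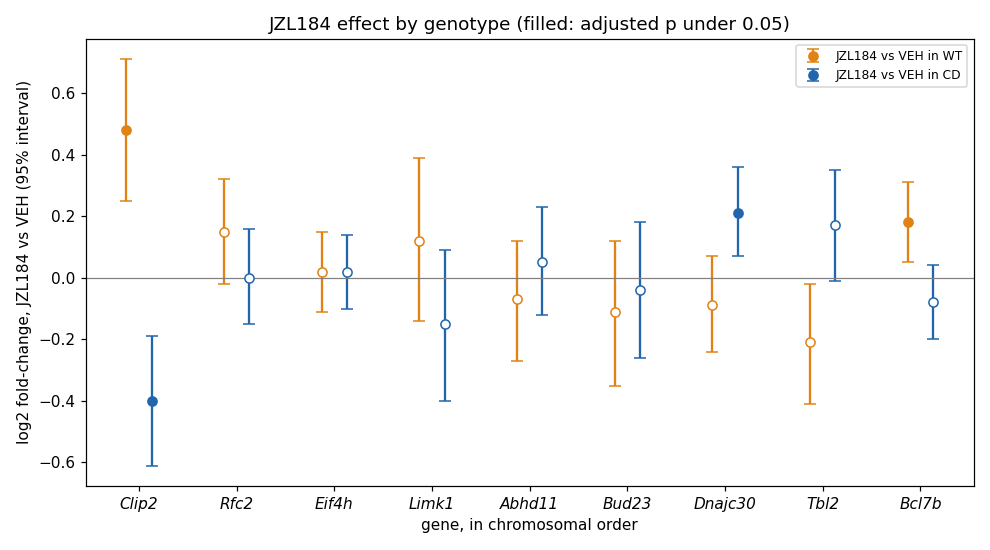
Log2 fold-change of JZL184 against vehicle (vertical axis) for each gene, in WT mice (orange) and in CD mice (blue), with 95% intervals. Filled circles passed an adjusted p-value of 0.05, and Clip2 is filled in both genotypes with opposite signs, at 0.48 in WT and -0.40 in CD mice.

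A difference between the genotypes in the response to JZL184 was tested directly as an interaction. It passed for Clip2 (-0.88 on the log2 scale, SE 0.14, edgeR adjusted p = 5.4e-04), Tbl2 (0.38, SE 0.12, edgeR adjusted p = 0.0209), Bcl7b (-0.26, SE 0.08, edgeR adjusted p = 0.0217) and Dnajc30 (0.30, SE 0.10, edgeR adjusted p = 0.0223). These were 4 of 9 genes, beside 51.5% of all tested genes. Of the other 5 tested genes of the interval, 4 had a positive and 1 a negative interaction that passed (median 0.69). The same contrast is the difference between the genotype effects with and without the drug, so it is also what separates the percentages of WT given above. It did not pass for Eif4h (-0.00, 95% interval -0.18 to 0.18), Rfc2 (-0.14, -0.37 to 0.09), Limk1 (-0.28, -0.64 to 0.08), Abhd11 (0.13, -0.14 to 0.39) or Bud23 (0.08, -0.24 to 0.40). For Bcl7b the interaction fell to -0.03 (edgeR adjusted p = 0.752) with an offset for gene length, and with the same offset it passed for Bud23 (0.49, edgeR adjusted p = 0.00831) and Abhd11 (0.30, edgeR adjusted p = 0.0496). The interaction did not pass without WT VEH mouse C for Tbl2 (edgeR adjusted p = 0.0860), Dnajc30 (edgeR adjusted p = 0.0629) or Bcl7b (edgeR adjusted p = 0.0904). For Dnajc30 this was so too without CD JZL184 mouse C, CD VEH mouse A or WT VEH mouse D, and for Bcl7b without CD JZL184 mouse E or CD VEH mouse A.

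Because a ratio of 2 genes in one mouse does not depend on the scaling, the counts of these genes were also divided by those of Eif4h. Clip2 amounted to 9.05% and 9.40% of Eif4h in WT VEH and 8.31%, 9.04% and 8.93% in CD JZL184, against 11.6%, 13.1% and 13.3% in WT JZL184 and 11%, 12.2% and 11.9% in CD VEH. The first 2 groups lay below the others without overlap. Bcl7b amounted to 18.6% and 18.7% of Eif4h in WT VEH and 19.7% to 20.7% in CD JZL184, against 20.1% to 21.4% in WT JZL184 and 21% to 21.9% in CD VEH. Tbl2 went the other way, with 10.5% and 11.5% in WT VEH and 9.46% to 11.4% in CD JZL184, and 9.24% to 9.54% in WT JZL184 and 8.64% to 9.44% in CD VEH. Dnajc30 had 20.0% and 20.8% in WT VEH, 19.3% to 21.6% in CD JZL184, 18.5% to 19.3% in WT JZL184 and 16.2% to 19.1% in CD VEH.

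**Figure D4:**
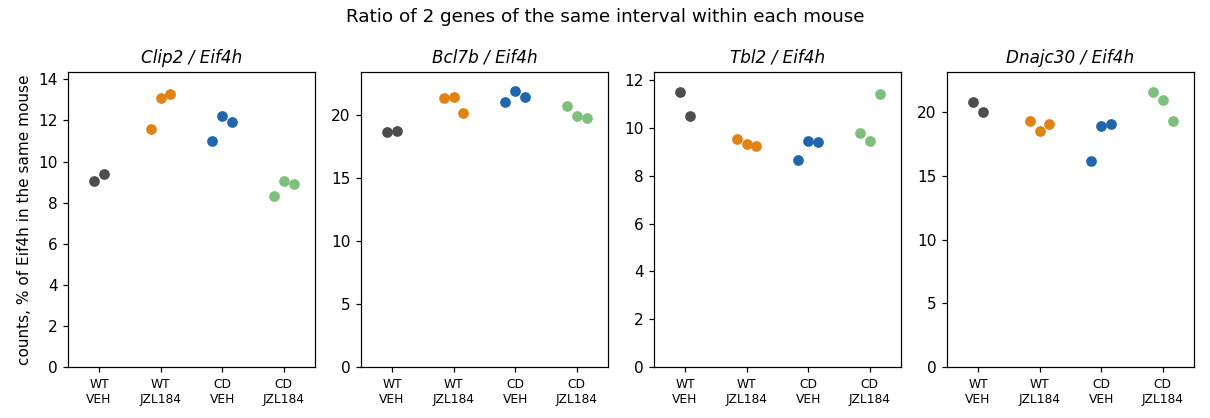
Counts of Clip2, Bcl7b, Tbl2 and Dnajc30 as a percentage of the Eif4h counts of the same mouse (vertical axes, linear, from 0), by group, with a point per mouse. For Clip2 the WT VEH and CD JZL184 mice lie at 8.31% to 9.40% and the WT JZL184 and CD VEH mice at 11% to 13.3%.

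The lists for endothelial cells, fibroblasts, smooth muscle cells and macrophages hold 12 tested markers. Most moved with JZL184 in the directions of the log2FCs of Clip2 and Bcl7b, and opposite to those of Tbl2 and Dnajc30. Of the 12, 10 were upregulated by JZL184 in WT mice, 8 downregulated by it in CD mice and 8 upregulated in CD VEH against WT VEH. In the last comparison, Clip2, Bcl7b, Tbl2 and Dnajc30 were all downregulated. Over all 11319 tested genes, the counts in the same order were 1748, 1926 and 1694. The summed endothelial markers had 380 and 382 CPM in WT VEH, 573 to 598 in WT JZL184, 472 to 527 in CD VEH and 372 to 439 in CD JZL184. The summed smooth muscle markers had 77.6 and 88.7, 119 to 156, 89.5 to 99 and 57.0 to 72.5 CPM in the same order. Genes of the mitochondrial genome took 39.4% and 41.2% of the counts in WT VEH, 45.0% to 46.6% in WT JZL184, 43.5% to 44.7% in CD VEH and 36.4% to 40.1% in CD JZL184. The part of these differences in the levels of Clip2, Bcl7b, Tbl2 and Dnajc30 was not tested. Leaving mitochondrial genes out of the fit cannot test this part, because it moved the median interaction of all genes by only -0.01. The interaction of all 4 genes passed in that fit. Of the 6 cardiomyocyte markers, 0 were upregulated and 3 downregulated by JZL184 in WT mice, 3 upregulated and 1 downregulated by it in CD mice, and 0 upregulated and 2 downregulated in CD VEH against WT VEH. They summed to between 24626 and 34680 CPM in a mouse, none of the 3 atrial markers passed the filter (0.884 to 2.40 CPM in sum), and skeletal muscle and adipocyte markers summed to under 1 CPM. CD VEH mouse A had 17295 CPM of erythroid markers against 1320 to 5103 in the other 10 mice. Without it, Clip2 and Tbl2 kept their interaction, whereas Dnajc30 (edgeR adjusted p = 0.0555) and Bcl7b (edgeR adjusted p = 0.0518) did not pass.

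The proteins work with partners encoded elsewhere, and 9 lists of such partners, one for each gene, held 107 genes, of which 101 were tested. With the treatments averaged, 0 were upregulated and 1 was downregulated, or 0.99%, beside 1.09% of all tested genes. That gene was Ddit3, a transcription factor downstream of PERK, with 10.8 and 11.7 CPM on average in WT VEH and WT JZL184 and 9.56 and 8.26 in CD VEH and CD JZL184 (log2FC -0.34, SE 0.07, edgeR adjusted p = 0.0363). Ddit3 stood outside the rule for named genes, as does Pbrm1 further on, and it was singled out after its values were seen. The median log2FC of the 101 genes was 0.00. In the single comparisons, 11 were upregulated and 21 downregulated in CD VEH against WT VEH (31.7%, beside 30.4% of all tested genes). In CD JZL184 against WT JZL184, 29 were upregulated and 14 downregulated (42.6%, beside 38.3%), with a median of 0.07 against -0.06 with vehicle. JZL184 upregulated 31 and downregulated 14 in CD mice (44.6%, beside 33.8%), and upregulated 7 and downregulated 21 in WT mice (27.7%, beside 29.4%). An interaction was found for 55, 38 of them positive and 17 negative (54.5%, beside 51.5%). Each group of mice enters more than one of these comparisons. By direction, 1694 of all 11319 tested genes were upregulated and 1746 downregulated in CD VEH against WT VEH, and 2055 and 2276 in CD JZL184 against WT JZL184. JZL184 upregulated 1905 and downregulated 1926 of all tested genes in CD mice, and 1748 and 1584 in WT mice. The interaction was positive for 2865 and negative for 2963 of all tested genes that passed. The counts of the single lists stand beside these.

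None of the 6 listed paralogs of Clip2, Limk1 and Bcl7b passed the test with both treatments averaged. Clip4 came nearest (log2FC 0.20, SE 0.05, edgeR adjusted p = 0.0662), and Clip3 had -0.02 (SE 0.10, edgeR adjusted p = 0.965). Clip1 had a log2FC of -0.11 (SE 0.07, edgeR adjusted p = 0.562), Limk2 0.03 (SE 0.05, edgeR adjusted p = 0.870), Bcl7a 0.05 (SE 0.05, edgeR adjusted p = 0.765) and Bcl7c 0.18 (SE 0.06, edgeR adjusted p = 0.228). Their responses to JZL184 varied. Clip1 had means of 221 CPM in WT VEH, 148 in WT JZL184, 144 in CD VEH and 196 in CD JZL184, with an interaction of 1.03 (SE 0.14, edgeR adjusted p = 2.9e-04), opposite in sign to that of Clip2. The interaction of Clip4 was 0.95 (SE 0.09, edgeR adjusted p = 8.9e-05) and that of Clip3, which did not pass, -0.41 (SE 0.20, edgeR adjusted p = 0.109). Bcl7c, with 10.6, 13.3, 14.4 and 12.5 CPM in that order, had an interaction of -0.53 (SE 0.13, edgeR adjusted p = 0.00504), and Bcl7a one of 0.42 (SE 0.11, edgeR adjusted p = 0.00643). No interaction passed for Limk2 (0.13, SE 0.10, edgeR adjusted p = 0.266).

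Of the 10 tested partners of Clip2 at microtubule plus ends, 0 were upregulated and 5 downregulated in CD VEH against WT VEH (median log2FC -0.25), whereas 8 were upregulated and 0 downregulated in CD JZL184 against WT JZL184 (median 0.29). In CD JZL184 against CD VEH, 8 were upregulated and 0 downregulated (median 0.30). Clasp1, which stabilises microtubules, had 373 CPM on average in WT VEH, 225 in WT JZL184, 222 in CD VEH and 346 in CD JZL184 (log2FC of CD VEH against WT VEH -0.75, SE 0.12, edgeR adjusted p = 0.00345, and of CD JZL184 against WT JZL184 0.62, SE 0.11, edgeR adjusted p = 0.00213). JZL184 upregulated 0 and downregulated 6 of them in WT mice (median -0.27). For cofilin and its regulators, the targets and neighbours of Limk1, 1 of 12 genes was upregulated and 2 were downregulated in CD VEH. The upregulated gene was Cfl1, the main non-muscle cofilin (log2FC 0.52, SE 0.11, edgeR adjusted p = 0.00749), while the muscle form Cfl2 had -0.14 (SE 0.08, edgeR adjusted p = 0.211). Of the 12, 2 were upregulated and 2 downregulated in CD JZL184 against WT JZL184, with Cfl1 at -0.49 (SE 0.10, edgeR adjusted p = 0.00320).

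Among the partners of Eif4h, 2 of 8 were downregulated in CD VEH, led by the scaffold Eif4g1 (log2FC -0.43, SE 0.08, edgeR adjusted p = 0.00428). With the drug, 2 were upregulated and 0 downregulated in CD JZL184 against WT JZL184, with Eif4g1 at 0.36 (SE 0.07, edgeR adjusted p = 0.00265). The helicases Eif4a1 (0.13, SE 0.09, edgeR adjusted p = 0.289) and Eif4a2 (0.17, SE 0.10, edgeR adjusted p = 0.195) and their other cofactor Eif4b (-0.01, SE 0.06, edgeR adjusted p = 0.948) did not pass. For Bud23, its activator Trmt112 had 0.11 (SE 0.09, edgeR adjusted p = 0.345), and 1 of 10 genes of the list passed, the acetyltransferase Nat10 (-0.35, SE 0.06, edgeR adjusted p = 0.00450). With JZL184 in both genotypes, 2 of these 10 were upregulated and 0 downregulated in CD mice, with Nat10 at 0.30 (SE 0.06, edgeR adjusted p = 0.00267).

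For the mitochondrial pair, 7 of 15 tested subunits of ATP synthase were upregulated in CD VEH against WT VEH and 0 downregulated, whereas 0 were upregulated and 8 downregulated in CD JZL184 against WT JZL184 (median log2FC 0.14 and -0.23). In CD JZL184 against CD VEH, 0 were upregulated and 9 downregulated. The subunit gene Atp5j2 had 411 CPM in WT VEH, 512 in WT JZL184, 548 in CD VEH and 393 in CD JZL184 (log2FC of CD VEH against WT VEH 0.41, SE 0.08, edgeR adjusted p = 0.00452, and of CD JZL184 against WT JZL184 -0.38, SE 0.07, edgeR adjusted p = 0.00190). Of the 11 genes around Abhd11, 0 were upregulated and 3 downregulated in CD VEH, among them Ogdh (-0.42, SE 0.11, edgeR adjusted p = 0.0165) and Dlst (-0.31, SE 0.09, edgeR adjusted p = 0.0272), subunits of oxoglutarate dehydrogenase, and Dlat of pyruvate dehydrogenase (-0.44, SE 0.08, edgeR adjusted p = 0.00384). Of these 11, 5 were upregulated and 0 downregulated in CD JZL184 against WT JZL184, with Ogdh at 0.60 (SE 0.10, edgeR adjusted p = 0.00162), Dlst at 0.26 (SE 0.08, edgeR adjusted p = 0.0311) and Dlat at 0.42 (SE 0.07, edgeR adjusted p = 0.00151).

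Around Tbl2, 1 of 9 tested genes of the unfolded protein response was downregulated in CD VEH, the stress sensor Atf6 (-0.59, SE 0.14, edgeR adjusted p = 0.0114), and Eif2ak3, which encodes PERK, had -0.02 (SE 0.09, edgeR adjusted p = 0.867). With JZL184 in both genotypes, 1 of the 9 was upregulated and 2 downregulated in CD mice, and Atf6, at 0.32 (SE 0.13, edgeR adjusted p = 0.0632), did not pass. Among the other subunits of the clamp loader of Rfc2, Rfc1 was downregulated in CD VEH (-0.20, SE 0.07, edgeR adjusted p = 0.0422), Rfc3 (0.12, SE 0.15), Rfc4 (0.20, SE 0.11) and Rfc5 (0.02, SE 0.16) did not pass, and the sliding clamp Pcna was upregulated (0.43, SE 0.07, edgeR adjusted p = 0.00330). Under JZL184, CD against WT mice, Rfc1 was upregulated (0.21, SE 0.06, edgeR adjusted p = 0.0163) and Pcna downregulated (-0.25, SE 0.06, edgeR adjusted p = 0.00829). In the BAF and PBAF complexes of Bcl7b, 2 of 20 subunits were upregulated and 6 downregulated in CD VEH, with Smarca4, the ATPase, at -0.25 (SE 0.07, edgeR adjusted p = 0.0246), Bcl7c at 0.44 (SE 0.10, edgeR adjusted p = 0.00799) and Pbrm1, a PBAF subunit, at -0.44 (SE 0.08, edgeR adjusted p = 0.00466). In CD JZL184 against WT JZL184, 8 were upregulated and 1 downregulated, with Smarca4 at 0.26 (SE 0.07, edgeR adjusted p = 0.0110) and Pbrm1 at 0.33 (SE 0.07, edgeR adjusted p = 0.00535), while Bcl7c did not pass (-0.09, SE 0.08, edgeR adjusted p = 0.429). After JZL184 in CD mice, 11 of the 20 were upregulated and 0 downregulated.

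The 9 genes followed each other closely across mice, as all were lower in the same 6 mice. The correlation of each gene's log2 CPM with the mean of the other 8, over 11 mice of both genotypes, ran from 0.917 for Clip2 to 0.996 for Eif4h. Outside the interval, the genes most like their mean profile were Tmod4 (Pearson r = 0.953, n = 11 mice), a row with the identifier ENSMUSG00000095041.7 that has no symbol in the annotation used (r = 0.929), Acta1 (r = 0.928), Fam81a (r = 0.923) and Cmbl (r = 0.915). Tmod4, which caps actin filaments in muscle and lies on chromosome 3, had 14.3 to 18.4 CPM in WT and 7.34 to 9.71 in CD mice (averaged log2FC -0.85, SE 0.08). Acta1, skeletal alpha-actin, had 160 to 225 CPM in WT mice and 22.3 to 74.1 in CD mice (averaged log2FC -2.03, SE 0.25). These coefficients rank genes on the same 11 libraries that gave the profile, and mainly repeat the split by genotype.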

How the data were processed

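Heart RNA (ventricle in the labels) of 11 mice was sequenced (HiSeq3000). The authors deposited one table of unnormalized estimated counts, a row per gene and a column per mouse. They had run Salmon 0.7.2 against Ensembl release 85 transcripts (GRCm38) and tximport 1.2.0. The study's own test was DESeq2. Columns name the group and a letter, and 0 columns lacked a group. Total counts were 69660232 to 92251443 per mouse, and 3 counts correspond to 0.0305 to 0.0433 CPM, which covers counting error only.

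Counts were rounded, filtered at an average log2 CPM of at least 1, scaled by TMM and tested with edgeR 4.0.16 and limma 3.58.1 in R 4.3.3 (quasi-likelihood test, a coefficient per group), with Benjamini-Hochberg adjustment over 11319 genes. The SE was derived from the F statistic, and 95% intervals are t intervals. The genotype effect averaged over treatments weighs both comparisons equally. Correlations used log2 CPM with a prior count of 2. Positions and lengths came from GENCODE mouse release 21, which matched 22238 of 22608 identifiers. Promoters came from RefSeq tables without Rfc2 and Dnajc30.

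Alternatives were DESeq2 1.42.0, RLE and upper-quartile factors, interval or mitochondrial genes left out, fits of only the groups compared, other filters (none, or a minimum of 10 counts in every mouse), a gene length offset (loess, span 0.5), an adjusted p under 0.01 with 99% intervals, and each mouse left out. The direct test against 50% of WT and the count of non-overlapping genes were added after seeing the data. Steps were tested on simulated counts, where a lowering to 50% in CD mice was mostly recovered but most simulated interactions were not. Named genes are the 9 genes, their paralogs and direct partners, the most changed called gene of each partner list in CD VEH against WT VEH, and the 5 genes outside the interval most like their mean profile. The partners Ddit3 and Pbrm1 were named outside this rule. The 9 genes and all lists were chosen with earlier results of these data known. P-values set each difference against the spread between these mice, which edgeR pools over the 4 groups and moderates across genes.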

Additional observations from a re-analysis of the deposited data

Results flagged for a closer look

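The response to JZL184 differed between CD and WT mice, by the interaction test, for 4 of the 9 genes. Clip2 had -0.88 on the log2 scale (SE 0.14, edgeR adjusted p = 5.4e-04), with an increase of 0.48 in WT and a decrease of -0.40 in CD mice that both passed. The interaction of Clip2 passed in all 20 alternatives with a value, between -1.01 and -0.81 (edgeR or DESeq2 adjusted p 5.5e-07 to 0.00491). Tbl2 had 0.38 (edgeR adjusted p = 0.0209, 0.29 to 0.43 over the alternatives), although neither of its changes within a genotype passed. Dnajc30 had 0.30 (edgeR adjusted p = 0.0223, 0.23 to 0.34 over the alternatives), with an increase in CD mice that passed. Bcl7b had -0.26 (edgeR adjusted p = 0.0217, -0.32 to -0.03 over the alternatives), with an increase in WT mice that passed narrowly. All 4 interactions rest on 2 WT VEH mice and were read beside 51.5% of tested genes that passed the same test.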

How the results depend on the processing

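All 558 recomputed genotype values of single genes kept their sign and call, and 9 of 9 genes were downregulated in CD mice in each alternative. Of 558 recomputed drug and interaction values, 508 kept sign and call, 38 lost the call, 4 gained it and 8 changed sign, all 8 without a call. Signs were compared on values rounded to 2 decimals, and a value of 0.00 was not counted as a change of sign. The sign changes were Eif4h in CD mice with upper-quartile factors (-0.01), and Bud23 (0.19) and Bcl7b (0.04) in CD mice with the gene length offset. Leaving out a mouse gave log2FCs in CD mice of -0.09 to 0.04 for Bud23, -0.03 to 0.12 for Abhd11 and -0.01 to 0.04 for Eif4h, and of -0.01 to 0.06 for Eif4h in WT mice.

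The number of genes changed by JZL184 in CD mice, 2 as reported, was 1 (Clip2) with no filter, 0 at an adjusted p under 0.01 (edgeR, with 2 at an unadjusted p under 0.05; in DESeq2, Clip2 had an adjusted p = 0.00230), and 1 to 2 when a mouse was left out. In WT mice it was 1 (Clip2) with no filter, with at least 10 counts in every mouse, with only the groups compared, without mitochondrial genes and at an adjusted p under 0.01, and 0 to 3 when a mouse was left out. The count of 0 came without WT VEH mouse C (edgeR, 1 at an unadjusted p under 0.05) and the count of 3, with Rfc2, without WT JZL184 mouse A. With the gene length offset, the number in WT mice was 2, with Bud23 (-0.30, adjusted p = 0.0324) in place of Bcl7b (0.07, adjusted p = 0.347). The number with an interaction, 4, was 3 with upper-quartile factors (Dnajc30 at adjusted p = 0.0642), 3 with no filter (Bcl7b at adjusted p = 0.0638), 1 (Clip2) at an adjusted p under 0.01 and 1 to 4 when a mouse was left out, with 1 without WT VEH mouse C and 2 (Clip2 and Tbl2) without CD VEH mouse A. With the gene length offset, the interaction of Bud23 passed (0.49, adjusted p = 0.00831), as did that of Abhd11 (0.30, adjusted p = 0.0496), and Bcl7b did not. The cause was not tested. Genes whose interval left out 50% of WT were 1 to 2 when a mouse was left out, the second being Rfc2 without WT JZL184 mouse B. Without a WT VEH mouse, the lone one left is assumed to vary like the other groups. Other scaling moved the median log2FC of all genes by -0.07 to 0.04. No paired analysis was possible because the columns carry no replicate numbers, and their letters are in no label.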
